A study of Mus musculus with 40 samples.

Results

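The genes described here encode subunits of respiratory complexes II to V. They were chosen by symbol among the protein-coding genes of GENCODE M21 (basic set, GRCm38): Sdha to Sdhd, Cyc1, and every symbol that starts with Uqcr, with Atp5, or with Cox followed by a digit from 4 to 8. The rule found 49 gene records under 48 symbols among 21951 protein-coding genes, with 4 records for complex II, 9 for complex III, 18 for complex IV and 18 for complex V. Atp5o has a second record, a longer gene model on chromosome 16 that starts inside the first one. The rule uses symbols and no measured value.

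Histone marks were profiled by ChIP-seq, in which antibody-enriched chromatin is sequenced, in interscapular brown adipose tissue (iBAT, as the methods of the study name it, whereas the series design text calls the tissue inguinal). The 8 animals were wild type C57BL/6N mice aged 20 weeks, and no transgene or deletion was involved. The warm NCD mice (1 and 2) were on chow, as the labels give their diet, without cold exposure. The cold NCD mice (4 and 5) were on chow and were kept at 4 °C for 24 h. The warm HFD mice (7 and 8) were fed Ssniff D12492 (I) mod., a high-fat diet, which began at 8 weeks of age and lasted 12 weeks, and the cold HFD mice (10 and 11) received that diet and the same 24 h of cold. The chow eaten up to 8 weeks of age was Ssniff V1554, and the product given to the NCD mice afterwards is not named. Each mouse had a peak list for H3K4me3, H3K27ac, H3K4me1 and H3K27me3, which gives 32 lists. Each condition thus rests on 2 mice, and since the methods leave it unclear whether tissue of a pair of mice was joined in each experiment, the spread between lists may be one between pools.

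Complex II oxidises succinate, complex III passes electrons from ubiquinol to cytochrome c, complex IV reduces oxygen, and complex V is the ATP synthase driven by the proton gradient. Brown adipocytes are rich in mitochondria and oxidise fuel to make heat when their proton gradient is dissipated by uncoupling protein 1. Several complex IV subunits exist as a broadly used isoform and as an isoform restricted to certain tissues: Cox7a1, Cox8b and Cox6a2 are known as heart and muscle isoforms, and Cox7a1 and Cox8b also as genes of brown fat. H3K4me3 marks active promoters, H3K27ac active promoters and enhancers, H3K4me1 mainly enhancers, and H3K27me3 repressed chromatin.

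The promoter sequences of the Cox7a and Cox8 isoforms are shown because these pairs set a restricted against a general gene of the same subunit. Each is the 250 bases before the RefSeq start site (GRCm38.p6), 5′ to 3′ on the strand of the gene, with every CpG in capitals. The window of Cox7a1 lies at chr7:30183921-30184170 on the plus strand, that of Cox7a2 at chr9:79759854-79760103, that of Cox8b at chr7:140900447-140900696 and that of Cox8a at chr19:7217617-7217866, these 3 on the minus strand. The last 27 bases for Cox7a1 and the last 25 for Cox7a2 lie inside the GENCODE gene, and the other windows lie wholly upstream of it.
Cox7a1: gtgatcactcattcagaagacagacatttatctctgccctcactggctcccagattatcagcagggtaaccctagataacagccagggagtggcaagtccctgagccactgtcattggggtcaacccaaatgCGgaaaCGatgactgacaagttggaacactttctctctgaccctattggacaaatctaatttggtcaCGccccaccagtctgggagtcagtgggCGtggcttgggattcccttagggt
Cox7a2: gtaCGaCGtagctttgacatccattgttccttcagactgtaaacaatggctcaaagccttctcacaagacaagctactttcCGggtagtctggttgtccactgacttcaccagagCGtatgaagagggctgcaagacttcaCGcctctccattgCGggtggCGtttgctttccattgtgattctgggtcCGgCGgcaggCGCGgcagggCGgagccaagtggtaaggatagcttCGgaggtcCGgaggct
Cox8b: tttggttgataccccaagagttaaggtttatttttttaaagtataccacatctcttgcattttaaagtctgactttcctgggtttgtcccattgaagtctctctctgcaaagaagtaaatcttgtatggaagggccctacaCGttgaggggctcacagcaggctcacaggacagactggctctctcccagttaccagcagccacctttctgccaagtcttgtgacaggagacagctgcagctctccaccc
Cox8a: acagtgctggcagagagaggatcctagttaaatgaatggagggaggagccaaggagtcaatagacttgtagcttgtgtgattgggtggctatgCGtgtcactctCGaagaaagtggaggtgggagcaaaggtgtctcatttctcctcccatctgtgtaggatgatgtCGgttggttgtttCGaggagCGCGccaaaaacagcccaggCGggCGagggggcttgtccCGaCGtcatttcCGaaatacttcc

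The restricted isoforms of these pairs had few CpGs in these windows, 4 for Cox7a1 and 1 for Cox8b, against 14 for Cox7a2 and 11 for Cox8a. Over the 300-base promoters of the RefSeq table, which run from 250 bases before to 50 after the start, the observed over expected CpG ratio was 0.333 for Cox7a1 and 0.115 for Cox8b. It was 0.833 for Cox7a2 and 0.842 for Cox8a. The promoters matched 34 of the 49 gene records, with 37 promoters, among which Cox8b had the lowest ratio and Cox7a1 the next lowest. The general isoform Cox7b followed at 0.368, below its restricted partner Cox7b2 at 0.564. Restricted Cox6b2 stood at 0.432 and its general partner Cox6b1 at 0.807. The median ratio was 0.823 over the member promoters, 0.384 over all 32851 promoters of the table, and 0.789 over the 9216 promoters of genes with H3K4me3 in all 8 mice.

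The same 37 promoters were searched on both strands for 5 motifs. The ETS motif CCGGAAG, bound by factors such as GABPA, stood in 12 of them (32.4%), against 8.86% of all promoters and 21.04% of those of genes with H3K4me3 in all 8 mice. The NRF1 motif, GCGCA, then any base, then GCGC, stood in 10, against 4.60% and 12.0%. The ERR motif TCAAGGTCA stood in 2 (5.41%), those of Atp5g3 and Sdhd, against 0.423% and 0.282%. The YY1 motif AAGATGGC stood in 2 (5.41%), against 2.75% and 5.28%, and TATAAA in 3 (8.11%), against 13.6% and 6.55%. No motif matched within the 250 bases printed above, and the TATAAA of Cox8b and the ETS matches of Cox8a reach into the 50 bases after the start site. A match describes letters in these windows and says nothing about binding in iBAT.

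A gene was counted as marked in a mouse when the summit of a peak lay within 1000 bp of any of its start sites. H3K4me3 was present in all 8 mice at 40 of the 49 genes (81.6%), against 41.5% of all protein-coding genes. H3K27ac was present in all 8 mice at 27 (55.1%), against 3.11%, and at 12 against 1.05% when peaks of −log10 q below 5 were left out. H3K4me1 reached 13 genes in any mouse, against 18.7% of all genes, with Uqcr11 and Cox8b marked in mice 2, 4 and 5, but its lists ranged from 12 to 27568 peaks, and H3K27me3 reached 0 of 49 in every list, where the lists were short (20 to 6428 peaks) and 6.28% of all genes had it in any. In such bulk tissue, fewer cells that carry a mark and less of the mark per cell cannot be told apart.

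The number of subunit genes with H3K4me3 was 44 and 45 in warm NCD, 45 and 44 in cold NCD, 42 and 42 in warm HFD and 44 and 44 in cold HFD mice. The number with H3K27ac was 41 and 42, 42 and 42, 28 and 42, and 41 and 42 in the same order. The number thus lay within a few genes in every mouse except mouse 7, where the H3K27ac list was the shortest of its mark with 3224 peaks, against 14511 to 40604 in the other mice. In that list 28 of 49 subunit genes (57.1%) but 3.64% of all genes had a peak. Without mouse 7, H3K27ac was present in all remaining mice at 40 of 49 genes, against 15.3% of all genes.

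**Figure D1:**
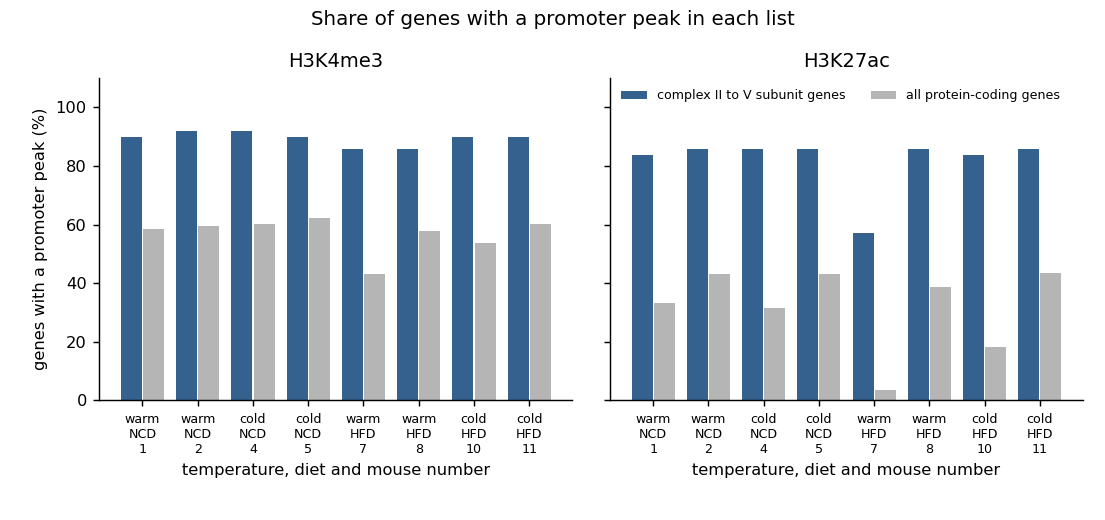
Share of genes with a promoter peak (%, vertical axis) in each of 8 mice for H3K4me3 (left) and H3K27ac (right), for the 49 subunit genes (blue) and all 21951 protein-coding genes (grey). In mouse 7 the H3K27ac bar of the subunit genes stands at 57.1% and that of all genes at 3.64%.

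By complex, H3K4me3 was in all 8 mice at 4 of 4 genes of complex II, 8 of 9 of complex III, 13 of 18 of complex IV and 15 of 18 of complex V. H3K27ac was in all 8 at 3, 6, 7 and 11 of them. Complex IV held 3 of the 4 records that had no H3K4me3 peak in any mouse, namely Cox6a2, Cox7b2 and Cox8c, the last 2 of which are known as testis isoforms. The fourth was the second record of Atp5o. These 4 records also had no H3K27ac peak.

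The strength of a mark was read as the percentile of the fold enrichment of the highest promoter peak among all peaks of the same list, since fold enrichments themselves differed between lists. Among genes with H3K4me3 in all 8 mice, the median over genes of their median percentile was 88.3 for the 40 subunit genes and 77.7 for all 9106 genes, and 35 of the 40 lay above the latter. The median of the bases covered by promoter peaks was 2120 against 1635 bases, with 34 of 40 above. For H3K27ac the median percentile was 97.3 for 27 subunit genes and 93.6 for all 682 genes, with 23 of 27 above. The median of the bases covered was 1598 against 1805, with 9 of 27 above. In the H3K27ac list of mouse 7 the order of the percentiles was reversed, with a median of 6.45 for the subunit genes and 42.5 for the 682 genes. In every other mouse the subunit genes stood higher. Peaks of both marks lay mostly just inside the gene: the median summit was 200 bp downstream of the nearest start site for H3K4me3 (309 of 350 peaks downstream) and 202 bp for H3K27ac (286 of 320).

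**Figure D2:**
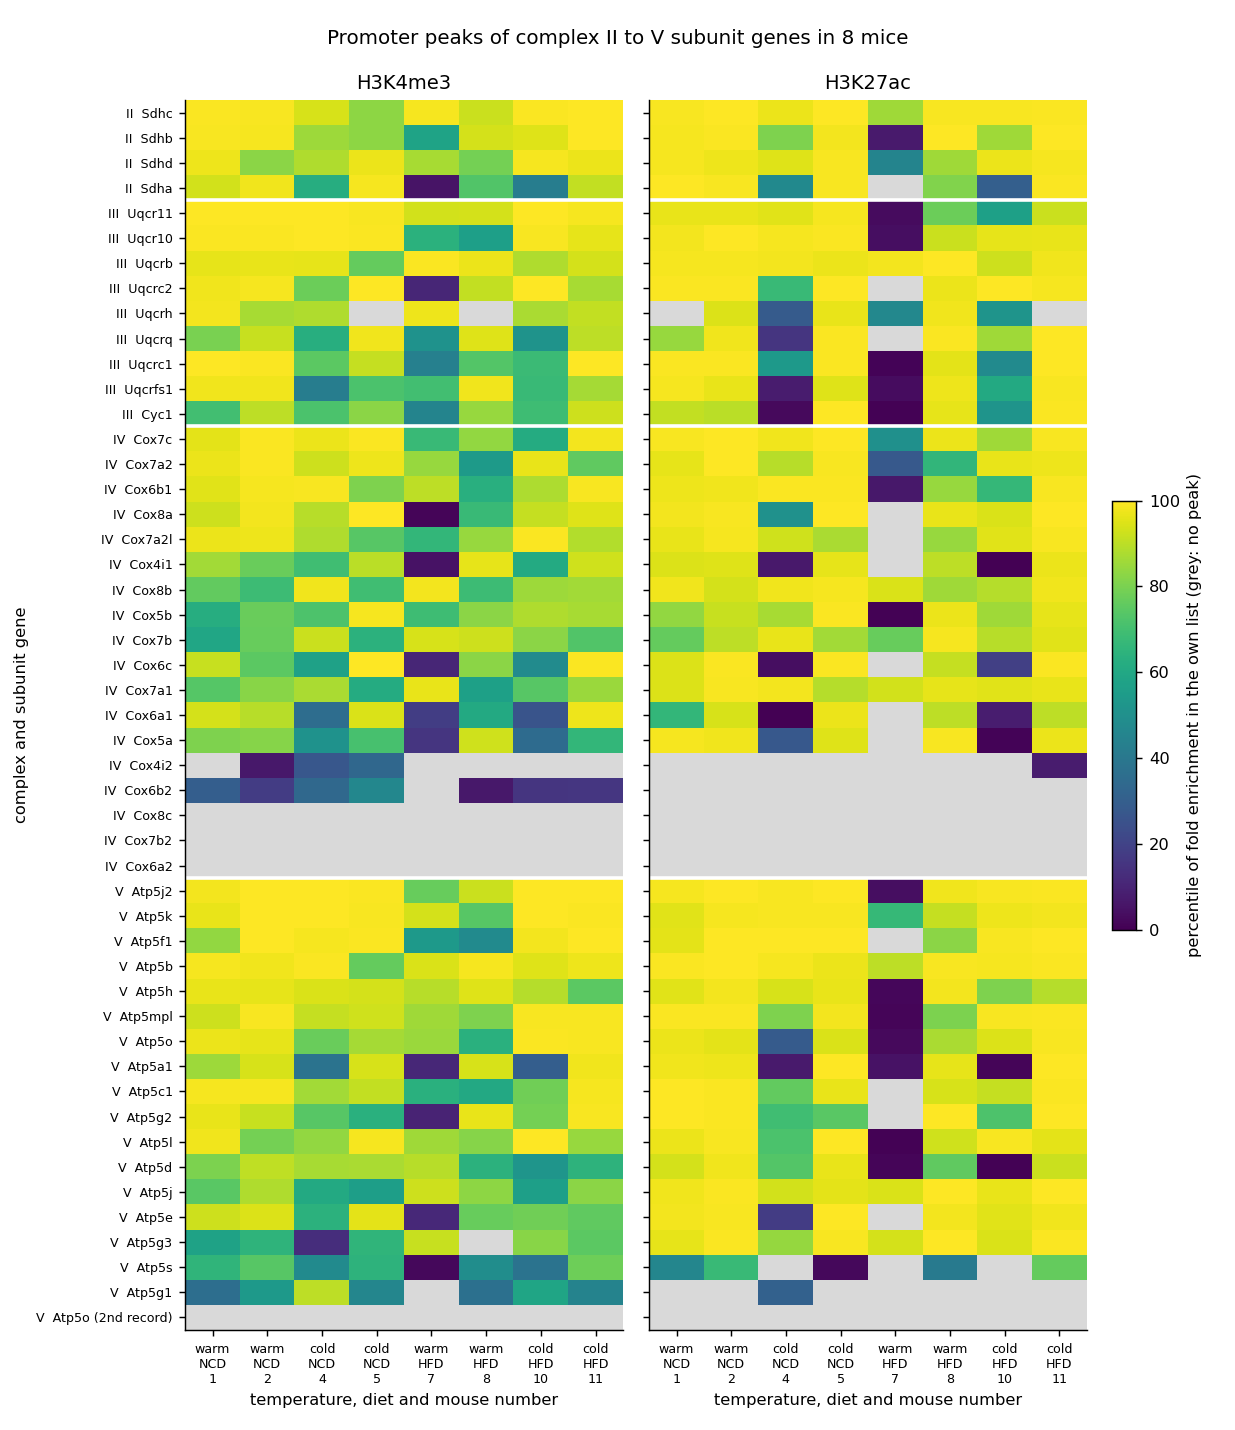
Percentile of the highest promoter peak by fold enrichment within the own list (colour) for each subunit gene (rows, sorted by complex and by median H3K4me3 percentile) and mouse (columns), for H3K4me3 (left) and H3K27ac (right), with grey for no peak. Most rows are bright in most mice, mice 4, 7 and 10 hold most of the dark cells, and Cox6a2, Cox7b2 and Cox8c are grey throughout.

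In complex II, the flavoprotein subunit Sdha and the iron-sulphur subunit Sdhb form the catalytic head, and Sdhc and Sdhd the membrane anchor. All had H3K4me3 in 8 of 8 mice. Sdhc was the highest of those with both marks in 8 of 8 mice, with H3K4me3 percentiles from 83.2 to 99.7 (median 98.7) and H3K27ac percentiles from 85.6 to 99.7 (median 99.0). Sdhd had the widest H3K4me3 of all members, with a median of 3745 bases (2267 to 4563). Its promoter is shared with Timm8b, a mitochondrial import gene on the opposite strand. Sdha varied most: its H3K4me3 percentile was 93.2, 97.7 and 98.5 in the NCD mice 1, 2 and 5 and 90.9 in mouse 11, but 62.3, 5.23, 72.8 and 42.2 in mice 4, 7, 8 and 10, and it had no H3K27ac peak in mouse 7 (median 99.1 in the other mice). Sdhb had a median H3K4me3 percentile of 94.2 and median H3K27ac percentile of 98.5.

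In complex III, Cyc1 encodes cytochrome c1, which carries electrons to cytochrome c, and had both marks in 8 of 8 mice. Its median percentile was 77.3 for H3K4me3 (45.1 to 92.3) and 90.3 for H3K27ac (0.713 to 99.7). The small subunits Uqcr11 and Uqcr10 were among the highest members, with median H3K4me3 percentiles of 99.3 and 99.1. Uqcrh, the hinge protein, is the complex III gene with H3K4me3 in fewer than 8 mice. It had H3K4me3 in 6 and H3K27ac in 6. In each of the 4 lists without it, a peak of 2940 to 4727 bases reached into the window while its summit lay 1252 to 1573 bp away. When any base of a peak within 1000 bp was counted, Uqcrh had both marks in 8 of 8 mice. Its promoter is shared with Lrrc41 on the opposite strand.

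In complex IV, Cox7c was the highest general subunit, with a median H3K4me3 percentile of 96.6 and a median H3K27ac percentile of 98.5. Cox5a, a matrix-side subunit, had a low median H3K4me3 percentile (68.5, from 15.6 to 92.9) but came after only Sdhd and Atp5a1 in H3K4me3 width, with a median of 3159 bases against 3745 and 3621. Cox5b was among the lowest for H3K27ac, with a median percentile of 89.2, followed by Cox7b with 89.6.

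In complex V, the membrane subunit gene Atp5j2 was the highest member for both marks among those marked in 8 of 8 mice. Its median percentile was 99.7 for H3K4me3 (76.6 to 100.0) and 99.1 for H3K27ac (3.71 to 99.8). Atp5k followed for H3K4me3 at 99.3, level with Uqcr11. Atp5b, the catalytic beta subunit, came next after Sdhc for H3K27ac, at 98.9. At the low end of members marked in 8 mice, Atp5s, which encodes coupling factor B, had a median H3K4me3 percentile of 56.8 but H3K27ac in 5 of 8 mice, Atp5e had 77.6 for H3K4me3, and Atp5d, the delta subunit, had the lowest H3K27ac median, 83.7 (0.751 to 97.9). Among members with H3K4me3 in 8 mice, the lowest after Atp5s and Cox5a was Cox6a1, with a median of 75.0.

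The 3 c-ring genes Atp5g1, Atp5g2 and Atp5g3 encode the same mature c subunit, the proton-carrying ring. Atp5g2 had H3K4me3 in 8 mice and H3K27ac in 7. Atp5g3 had H3K27ac in 8 mice, with percentiles from 84.3 to 99.8, and H3K4me3 in 7, with a median percentile of 65.5. In mouse 8 the summit of its H3K4me3 peak lay 1006 bp from the start site, just past the limit. Atp5g1 had H3K4me3 in 7 mice, with percentiles from 36.3 to 90.1 (median 45.9), and H3K27ac in mouse 4 alone, at a percentile of 31.1. In the lists without it, the nearest summit to Atp5g1 lay 9410 to 246913 bp away.

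Shared promoters were frequent among these genes. A start site of another protein-coding gene on the opposite strand lay within 1000 bp at 13 of 49 records (26.5%), against 10.5% of all protein-coding genes. Among members marked in 8 mice, the 12 with a shared promoter had a median of 2475 bases of H3K4me3 and the other 28 a median of 2030. One of them, Atp5j, a coupling factor subunit, shares its promoter with Gabpa, which encodes an ETS factor of nuclear respiratory gene control. Atp5j had a median of 4086 bases of H3K27ac (1880 to 6378), second to Cox8b among members marked in 8 mice. For such genes the lists do not tell which gene a peak belongs to.

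The isoform pairs of complex IV fell into 2 patterns. Cox7a1 and Cox8b, the restricted isoforms of the pairs whose promoters are shown above, had H3K4me3 and H3K27ac in 8 of 8 mice. In mice 1, 2, 4, 5, 7, 8, 10 and 11 in that order, the H3K4me3 percentile of Cox7a1 was 73.5, 82.4, 87.3, 61.4, 96.8, 57.0, 73.9 and 84.8. That of its general partner Cox7a2 was 96.9, 99.5, 92.4, 97.5, 84.5, 54.5, 96.5 and 75.5. Cox7a1 was thus lower in 5 mice and higher in the other 3, mice 7, 8 and 11. The mean difference was −10.0 percentile points (SD 17.4, n = 8 mice; two-sided exact test over sign flips, p = 0.148, Benjamini-Hochberg adjusted over 12 tests 0.198).

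The H3K4me3 percentile of Cox8b was 76.0, 68.4, 97.7, 69.5, 98.1, 68.6, 85.5 and 86.1 in the same order of mice. That of Cox8a was 92.5, 98.2, 89.4, 99.7, 1.50, 67.9, 91.3 and 94.9. The pair differed by 1.80 points (SD 40.6, n = 8; exact p = 0.953, adjusted 0.953), with Cox8b lower in 5 mice. Mouse 7 set the sign: without it the difference was −11.8 points (exact p adjusted 0.131).

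The H3K27ac percentile of Cox7a1 was between 88.8 and 99.0 in every mouse (median 96.0), and that of Cox8b between 85.8 and 98.8 (median 96.1). Cox7a2 ranged from 27.9 to 99.7, and Cox8a had no H3K27ac peak in mouse 7 and otherwise ranged from 50.7 to 99.9. In mouse 7 the median was 6.45 over the 27 members and 42.5 over the 682 genes with H3K27ac in all 8 mice. Cox7a1 stood at 93.2 and Cox8b at 94.3 in that mouse. They were among a group of members that also held Uqcrb at 98.1, Atp5j at 94.2, Atp5g3 at 93.6 and Atp5b at 90.0. The mean differences were 11.3 points for Cox7a1 minus Cox7a2 (SD 25.0, n = 8; exact p adjusted 0.450) and 14.6 points for Cox8b minus Cox8a (SD 37.0, n = 8; exact p adjusted 0.545). The general isoform was nevertheless the higher one in 5 of 8 mice for Cox7a and in 6 of 8 for Cox8, and without mouse 7 the differences were 3.58 and 3.24 points.

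The other restricted isoforms were low or absent. Cox6a2, known from heart and muscle, and Cox7b2 had no peak of either mark in any mouse. Cox4i2, an isoform known from lung, had H3K4me3 in mice 2, 4 and 5, at percentiles of 6.41, 27.01 and 33.2, and H3K27ac in mouse 11 alone, at 7.61. Cox6b2, known from testis, had H3K4me3 in 7 mice at percentiles of 6.31 to 46.3 and no H3K27ac peak. With no peak counted as 0, their general partners stood higher in H3K4me3 by 64.5 (Cox6a1, SD 33.6), 63.9 (Cox4i1, SD 30.3), 68.5 (Cox6b1, SD 17.6) and 79.3 points (Cox7b, SD 13.3), in 8 of 8 mice each. For Cox4i2 and Cox6b2 the exact p was 0.00781, the smallest that 8 mice allow (adjusted 0.0156). Cox4i2 had no H3K4me3 peak in mice 1, 7, 8, 10 and 11, and Cox6b2 none in mouse 7. In those mice the sign was fixed in advance, so no conclusion is drawn from the p of Cox4i2. Where the restricted isoform had no peak in any mouse the sign was fixed by the presence of the partner, so no p is given. These fixed tests still counted among the 12 over which the other p-values were adjusted. In H3K27ac the partners stood higher by 55.7, 59.2, 81.4 and 88.7 points in the same order, in 7, 7, 8 and 8 mice. Among these restricted isoforms only Cox4i2 had an H3K27ac peak, in mouse 11 alone. In every other mouse it counted as 0, so no p is given for H3K27ac either. When peaks of −log10 q below 5 were left out, that peak was gone too. Cox7a2l, a relative of Cox7a known for joining complexes III and IV, had H3K4me3 in 8 mice (median percentile 88.3) and H3K27ac in 7.

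**Figure D3:**
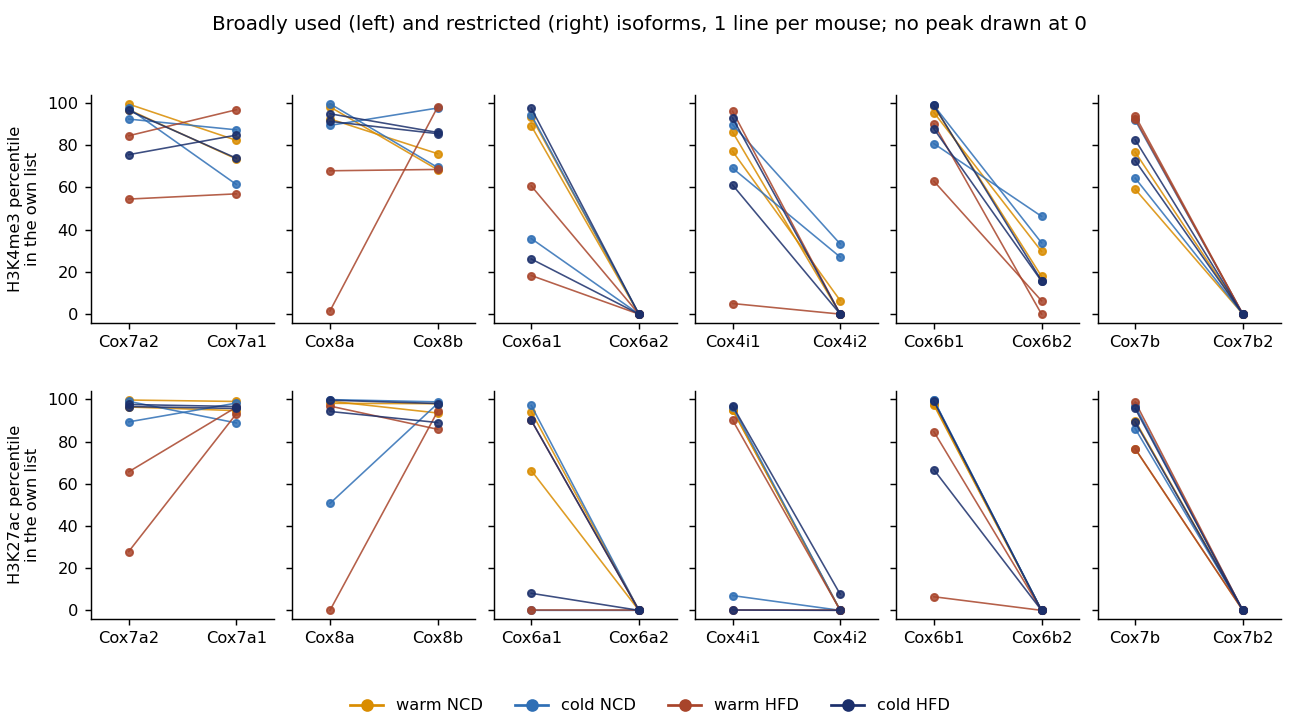
Percentile in the own list (vertical axis, 0 to 100, no peak drawn at 0) of the general isoform (left of each panel) and the restricted isoform (right) for H3K4me3 (top) and H3K27ac (bottom), 1 line per mouse, coloured by condition. The restricted isoforms Cox7a1 and Cox8b lie above 50 in every mouse and mark, and Cox6a2, Cox4i2, Cox6b2 and Cox7b2 lie at or below 46.3.

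The isoforms also differed in how far the marks spread. H3K27ac covered 2192, 4488, 4386, 4427, 649, 4255, 1406 and 4301 bases at Cox8b, in mice 1, 2, 4, 5, 7, 8, 10 and 11. It covered 654, 1438, 1517, 1384, none, 1368, 511 and 1514 bases at Cox8a. Cox8b was the wider of the pair in every mouse. Ranked by bases covered among the genes with a peak in each list, a measure added after the data were seen, Cox8b stood 36.4 percentile points above Cox8a for H3K27ac (SD 17.4, n = 8, higher in 8 of 8; exact p adjusted 0.0134). By the same measure Cox7a1 stood 21.1 points below Cox7a2 for H3K4me3 (SD 23.5, n = 8, lower in 8 of 8; exact p adjusted 0.0134), and the other 2 differences of these pairs did not pass.

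Between marks, H3K4me3 was the wider one by median bases at most marked members, so this order is not particular to an isoform. Examples are Cyc1 (1996 against 1123 bases) and Cox6b1 (1973 against 1262.5). Cox8b, Atp5j, Atp5g3 and Atp5e went the other way. At Cox7a2, H3K4me3 was wider than H3K27ac in 8 of 8 mice, with geometric means of 2108 and 1112 bases. The log2 difference was 0.92 (two-sided exact sign flips within mice, p = 0.00781, adjusted over 4 genes 0.0313). An exact permutation test of 8 against 8 lists, which ignores that both marks come from the same mice, gave p = 0.000155 (adjusted 0.000622). The other p-values of this paragraph are from that permutation test unless given as within mice. At Cox8b the order was the opposite in 6 of 8 mice, with 1889 bases of H3K4me3 and 2741 of H3K27ac, a log2 difference of −0.54 (exact p = 0.191, adjusted 0.255). Without mouse 7 that difference was −0.77 and passed (exact p adjusted 0.0373). At Cox8a the log2 difference was 0.57 (exact p adjusted 0.168), and it too passed without mouse 7, at 0.67 (exact p adjusted 0.0373). Within the 7 remaining mice, a fit added after the data were seen, neither passed, nor did Cox7a2 (exact p adjusted 0.0625 for each). H3K4me3 at Cox7a2 was the wider mark in 7 of 7 mice, with the smallest exact p that 7 mice allow (0.0156). That p alone cannot pass adjustment over 4 genes, so the result for Cox7a2 was set by the test. At Cox7a1 it was 0.26 (exact p adjusted 0.455).

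**Figure D4:**
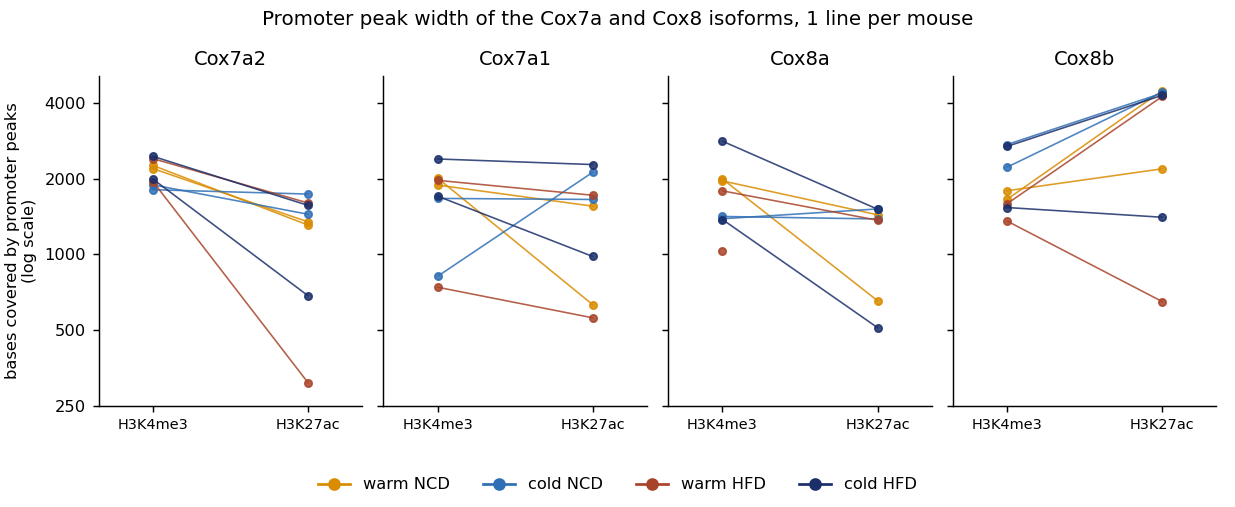
Bases covered by promoter peaks (vertical log axis) for H3K4me3 and H3K27ac at Cox7a2, Cox7a1, Cox8a and Cox8b, 1 line per mouse, coloured by condition. Cox7a2 falls from H3K4me3 to H3K27ac in all 8 mice, and Cox8b rises in 6, to between 2192 and 4488 bases.

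The comparison of temperature and of diet asked whether marking of these genes shifted after 24 h of cold or 12 weeks of HFD. No subunit gene had a peak of any mark in all 4 mice of one temperature or diet and in none of the other 4. Over all genes with H3K4me3 in any mouse, 0.0495% were cold-only and 0.0141% warm-only by that rule, 0.0141% HFD-only and 0.177% NCD-only. For H3K27ac the shares were 0.102%, 0%, 0% and 0.13%, and 0.0732% of genes with H3K4me1 were NCD-only. An exact test of presence in 4 against 4 mice cannot go below p = 0.0286 for any gene.

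The rank of the highest promoter peak was compared among the 9106 genes with H3K4me3, and the 682 with H3K27ac, in all 8 mice, which include 40 and 27 of the 49 subunit genes. A gene enters only when it is marked in every condition, so a loss of the mark cannot appear here. In the limma fit no subunit gene was called for cold against warm, for HFD against NCD or for their interaction, for either mark (lowest adjusted p in limma 0.267, the interaction for H3K27ac at Atp5mpl). The background share called was 0% in each of these fits. At an unadjusted p under 0.05, limma gave 5 of 40 for cold, 4 for HFD and 8 for the interaction in H3K4me3, against 5.08%, 5.21% and 5.03% of all genes. It gave 0, 4 and 2 of 27 in H3K27ac, against 3.96%, 6.6% and 7.77%.

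The median difference over the 40 subunit genes was 1.82 rank points for cold minus warm and −5.43 for HFD minus NCD in H3K4me3, against 0.258 and 0.452 over all genes. For the interaction, coded as the cold effect on HFD minus that on NCD, the median was 25.2 in H3K4me3 with 32 of 40 positive and 21.4 in H3K27ac with 17 of 27 positive, against −1.35 and −1.78 over all genes. None of these gene-wise interactions was called. No subunit gene had all cold mice above all warm mice in H3K4me3 rank, or all below, against 1.49% and 1.19% of all genes, and none had all HFD mice above all NCD mice, against 1.67%. The same counts for H3K27ac rank were 0 of 27, against 1.03%, 1.03% and 1.91%.

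Uqcr10 and Uqcr11, both small subunits of complex III, were the members with full separation of ranks by diet. The H3K4me3 rank of Uqcr10 among the tested genes was 98.1, 98.2, 99.8 and 98.5 in the NCD mice and 54.5, 20.6, 97.7 and 88.9 in the HFD mice. The groups did not overlap, a fall seen in 1 of 40 members and in 1.52% of all genes, and the difference was −33.2 points (SE 11.2; limma adjusted p = 0.838). For H3K27ac, Uqcr10 and Uqcr11 were the 2 of 27 members with all HFD mice below all NCD mice, against 2.2% of all genes. The H3K27ac rank of Uqcr11 was 64.3, 50.5, 62.9 and 74.3 in NCD and 8.94, 14.7, 15.5 and 23.8 in HFD mice, a difference of −47.3 points (SE 15.9; limma adjusted p = 0.491).

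Widths were compared as log2 bases covered, centred on the median of the tested genes in each list. Again no subunit gene was called by limma for either mark in any contrast, and over all genes the share called was 0.0439% for H3K4me3 width in HFD against NCD, 4 of 9106 genes, all of them wider, and 0% in the other contrasts. Before adjustment, limma gave 14 of 40 subunit genes a p under 0.05 for HFD against NCD in H3K4me3 width, all of them wider in HFD, against 17.9% of all genes. For cold it gave 7 of 40 against 10.4%, 6 narrower and Cox8b wider, and for the interaction 1 of 40 against 4.8%. The median difference was 0.23 log2 for HFD minus NCD, with 30 of 40 positive, and −0.10 for cold minus warm, with 27 of 40 negative, against medians within 0.01 of 0 over all genes. In H3K27ac width 1 of 27 had a p under 0.05 for HFD, against 6.45%, and 0 of 27 for cold, against 5.57%, and for the interaction, against 3.08%.

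Atp5a1, which encodes the alpha subunit of the ATP synthase head, had the lowest p. Its H3K4me3 covered 3753, 3802, 1265 and 1520 bases in the NCD mice 1, 2, 4 and 5 and 3189, 3843, 3489 and 4584 bases in the HFD mice 7, 8, 10 and 11. It was narrow in the cold NCD mice and broad in the other 6. On the centred log2 scale the HFD mice stood at 1.78, 1.18, 1.28 and 1.20 and the NCD mice at 1.07, 1.08, −0.10 and 0.02. The difference was 0.84 (SE 0.15; limma adjusted p = 0.108), that for cold minus warm −0.68 (SE 0.15; adjusted 0.318) and the interaction 0.88 (SE 0.30; adjusted 0.851).

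All HFD mice stood above all NCD mice in H3K4me3 width at 6 of 40 subunit genes, Uqcrfs1, Atp5a1, Atp5f1, Atp5j2, Uqcrc2 and Cox5a, against 5.92% of all genes, and at 0 of 40 they stood below, against 5.14%. At Uqcrc2, a core subunit, the centred values were 0.48, 0.66, 0.47 and 0.47 in NCD and 1.55, 1.07, 0.95 and 0.73 in HFD mice. All cold mice stood below all warm mice at 2 of 40, Cox6c and Cox7b, against 1.83%, and above at 0 of 40, against 2.13%. At Cox7b, H3K4me3 covered 2455, 2449, 1680 and 2121 bases in the warm mice 1, 2, 7 and 8 and 582, 1034, 1352 and 2391 in the cold mice 4, 5, 10 and 11. The cold values lay lower once each list was centred (−1.22, −0.53, −0.08 and 0.26, against 0.45, 0.45, 0.86 and 0.32). In H3K27ac width, Uqcrb and Cox6b1 stood entirely above and Uqcr11 entirely below in HFD, 2 and 1 of 27 against 2.35% and 1.47%. In the same measure 0 of 27 had all cold mice above, against 2.2%, or below, against 0.88%.

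The width comparison turned on the warm HFD pair. Mouse 7 had narrower peaks than any other mouse (a median of 927 bases of H3K4me3 over the 9106 genes, against 1360 to 2001), but its 40 subunit genes had a median of 1616 bases. Without mouse 8, which leaves mouse 7 alone for warm HFD under the assumption that it varies like the other conditions, limma called 21 of 41 subunit genes for HFD (20 wider and 1 narrower), 12 for cold (2 wider and 10 narrower) and 6 for the interaction, among 3774, 2572 and 1803 of 9125 genes. Without mouse 7 instead, 1 of 42 subunit genes was called for HFD, Atp5a1 (difference 0.74, SE 0.09; limma adjusted p = 0.0366), among 135 of 11244 genes.

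Low percentiles at marked genes recurred in the same mice in both marks. At Cox6a1, the broadly used partner of Cox6a2, the H3K4me3 percentile was 93.5, 89.2, 94.4 and 97.6 in mice 1, 2, 5 and 11 and 35.8, 18.3, 60.7 and 26.1 in mice 4, 7, 8 and 10. Its H3K27ac percentile was 0.0229 in mouse 4 and 8.08 in mouse 10, and no peak was listed in mouse 7. A peak's fold enrichment is a pileup of ChIP fragments over a local background taken from the input, with 1 added to each, and together with its p-value it allows both to be worked out. At Cox6a1, the H3K4me3 pileup worked out was 262 in mouse 4 and 245 in mouse 5, and the local background was 30.0 and 1.01. The fold enrichment from which both were worked out was 8.48 in mouse 4 and 122 in mouse 5. Pileups at members came out as whole numbers at only 6.67% of H3K4me3 peaks in mouse 4 and 6.82% in mouse 5. They are thus not raw fragment counts, and their scale may differ between mice.

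This background, whose scale may differ between mice, was worked out for mice 1, 2, 4, 5, 7 and 10 after the data were seen. For H3K4me3 it was 2 fragments or more at 2, 4, 32, 14, 27 and 16 of the 40 subunit genes in that order (to within 0.001), and at 5.34%, 7.65%, 89.2%, 22.2%, 62.1% and 37.6% of all 9106 genes. High values in mice 4 and 7 were thus shared by promoters of other genes. In the H3K27ac list of mouse 7 it reached 2 fragments at 17 of 27 subunit genes (63.0%) and at 21.4% of the 682 genes. In mice 8 and 11 it could be worked out for only 20 of 42 and 16 of 44 H3K4me3 peaks of members, of which 20 and 12 were at 2 fragments or more, so these mice were left out of the comparison. Mouse 11 had a median member percentile of 94.3. The part of the background in the differences between conditions was not tested.

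**Figure D5:**
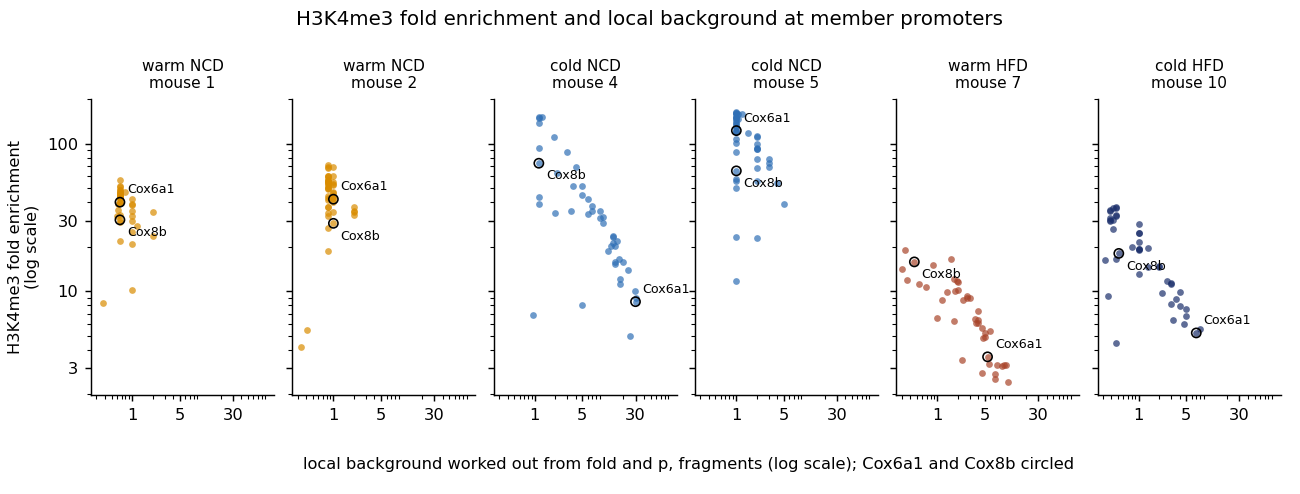
H3K4me3 fold enrichment (vertical log axis) against the local background worked out from fold enrichment and p (fragments, horizontal log axis) for each marked subunit gene in mice 1, 2, 4, 5, 7 and 10, coloured by condition, with Cox6a1 and Cox8b circled. In mice 1 and 2 the points lie at or below 2 fragments. In mice 4, 7 and 10 the fold enrichment falls as the background rises, with 30.0 fragments at Cox6a1 in mouse 4. Part of that fall is built in, since the background is computed from the fold enrichment itself. The scale of the background may differ between mice.

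Another 43 genes of the pathway lie outside the symbol rule, such as Cycs and Surf1, and also Ndufa4 and Usmg5. Of these, 40 had H3K4me3 in 8 of 8 mice and 7 had H3K27ac. Of 7 regulators of these genes, 6 had H3K4me3 in 8 mice and 2 had H3K27ac. Of both lists together, 46 genes entered the H3K4me3 fits and 9 the H3K27ac fits, and limma called none in any contrast, where 11 of 46 had an unadjusted p under 0.05 for H3K4me3 width in HFD against 17.9% of all genes. Genes known from brown adipocytes were marked: of 10, 6 had H3K4me3 in 8 mice, Ucp1, Cidea and Dio2 among them, and each H3K4me3 list held 8 or 9. Ppargc1a had H3K4me3 in 3 mice and Fabp4 in 4. H3K27ac was in 8 mice at 4 of the 10 genes and in 5 mice at Ucp1, and each list held 5 to 9. Of 10 skeletal muscle genes, Ckm, Myh1, Myh2, Myh4 and Tnnt3 had no H3K4me3 or H3K27ac peak in any mouse. Mylpf had H3K4me3 in 8 mice and Actn3 in 7. Acta1 had it in the NCD mice 1, 2, 4 and 5 and in no HFD mouse, and Pygm in mice 1, 4 and 5. H3K27ac was in 5 mice each at Mylpf and Casq1. Each list held 1 to 4 of the muscle genes with H3K4me3 and 0 to 2 with H3K27ac. Of 5 macrophage genes each list held 0 or 1, of 4 endothelial genes 1 to 4, and the 3 liver genes had no peak.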

How the data were processed

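Per the labels and the study's methods, the authors trimmed reads with cutadapt, aligned them to GRCm38 with Bowtie2 and called peaks in each ChIP library against its matching input with MACS2. Their versions and the peak threshold were not stated, and across the 32 lists deposited −log10 q went down to 1.30. The deposited peak lists hold, as the authors' peak caller gave them, a fold enrichment over local background (a ratio), a −log10 p, a −log10 q and an integer score, which was not used in any comparison. The 8 inputs have no list here, and read depth is not in the lists, so no counting interval is given. All 457540 peaks lay within GRCm38 chromosome lengths.

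A peak was given to a gene when its summit lay within 1000 bp of a GENCODE M21 basic start site. Percentiles were taken within each list. Ranks among genes marked in all 8 lists, and log2 bases covered centred on the list median, were fitted with limma 3.58.1 (R 4.3.3; trend, 1 mean per condition, Benjamini-Hochberg over all genes, threshold 0.05). The width fit for cold against warm was tested on simulated data, and the rank fits and other contrasts were not. Isoform pairs were compared within mice by exact sign flips (256, two-sided). Widths between marks were compared by exact permutation (12870 assignments), which leaves the pairing by mouse out, and by sign flips within mice. Mouse numbers tie the marks of 1 animal and pair no conditions. No batch is given in the labels.

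The members, gene lists and tests were chosen with earlier results of these data known. Genes named with values were the isoform pairs, Sdha to Sdhd, Cyc1, the c-ring genes, members with H3K4me3 in fewer than 8 lists, called or separated members, the 3 highest and 3 lowest by percentile for each mark and the 3 widest for H3K4me3. Cox7c, Uqcr10, Uqcr11, Uqcrc2, Atp5j, Atp5mpl and Atp5e were named after their values were seen. Promoter sequences are from RefSeq (GRCm38.p6). Alternatives were another window, overlap by any base, a stricter q, another percentile, and leaving out each mouse.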

Additional observations from a re-analysis of the deposited data

Results flagged for a closer look

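Among 100 groups of 4 to 8 mice tested for a sample far from the others, 18 stood out, where chance alone flags about 5. Many of these groups share the same mice, so the flags are not independent. Mouse 7 (warm HFD) gave 10 of them. For H3K27ac it had 28 members with a peak, against 41 to 42 elsewhere, among all mice, the warm mice and the HFD mice. Its median H3K27ac percentile over members was 6.45, against 92.5 to 99.0 in all other mice and 96.3 to 98.5 in the other warm mice. Its H3K27ac percentile of Cox7a2 was 27.9, against 65.7 to 99.7. For H3K4me3 its Cox8a percentile was 1.50, against 67.9 to 99.7, and among the warm mice it had a median of 1616 bases over members, against 2380.5 to 2403.5, and 740 bases at Cox7a1, against 1888 to 2011.

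Among the cold mice, mouse 11 had 2824 bases of H3K4me3 at Cox8a, against 1377 to 1416. Mouse 10 had 1406 bases of H3K27ac at Cox8b, against 4301 to 4427, at a percentile of 89.0, against 98.02 to 98.8. Among the NCD mice, mouse 1 had 2192 bases of H3K27ac at Cox8b, against 4386 to 4488, and mouse 2 a Cox8b percentile of 93.5, against 97.9 to 98.8. The remaining flags rest on a single gene: mouse 4 had 45 members with H3K4me3 where the other cold mice had 44, and mice 10 and 1 had 41 members with H3K27ac where the other cold or NCD mice had 42.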

How the results depend on the processing

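Of 460 alternative values for the members, 442 kept their direction and their side of the threshold. Counts of members called changed only when a mouse was left out: they ranged from 0 to 21 for H3K4me3 width by diet, 0 to 12 by temperature and 0 to 6 for the interaction, with each highest count without mouse 8. They ranged from 0 to 1 for the H3K27ac rank interaction (1 without mouse 8). Without mouse 1, Cox4i2 was NCD-only for H3K4me3 (range 0 to 1), and Uqcr11 and Cox8b for H3K4me1 (0 to 2). H3K27ac in every mouse held at 12 members with −log10 q of at least 5, against 1.05% of all genes, and at 27 to 40 with a mouse left out, 40 without mouse 7.

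For H3K4me3, Cox7a1 minus Cox7a2 passed with percentiles by −log10 p (−20.1, exact p adjusted 0.0208) and by bases covered, chosen after seeing the data (−21.1). Cox8b minus Cox8a turned negative by −log10 p (−3.85) and without mouse 7 (−11.8, the lowest with a mouse left out, up to 6.37). For H3K27ac, Cox8b minus Cox8a passed by bases covered (36.4). With −log10 q of at least 5 the differences of Cox6a2 and Cox4i2 from their partners were −48.8 and −57.5. Neither restricted isoform had a peak in that setting, so the sign was fixed and no call is read from them. The log2 width between marks ranged, with a mouse left out, from 0.41 to 0.68 at Cox8a and from −0.77 to −0.41 at Cox8b. With the mouse as a replicate block over 8 mice it was 0.92 at Cox7a2, which stayed called, and no other gene changed its call. With the block and mouse 7 left out, added after seeing the data, it was 0.67 at Cox7a2 and no gene was called. Cox7a2 was there at the smallest p that 7 mice allow, which alone cannot pass adjustment over 4 genes. The passes of Cox8a and Cox8b without mouse 7 hold only without the block. Leaving the pairing out of the isoform comparisons changed no call. The cause of these changes was not tested. Peak lists hold no depth, so a missing peak was one not detected at the depth and background of that list.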
